A study of Mus musculus with 16 samples.

Results

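The mouse chemokine ligands and chemokine receptors measured in the mammary gland comprised 37 genes, 26 ligands and 11 receptors, out of 18193 genes on the arrays. They were taken as every gene of a fixed name list that had probe sets annotated to that symbol alone, which gave 64 probe sets. Of the 37 genes, 20 had 1 probe set and 17 had several. Each gene is described by its probe set of the highest mean level, and others are given where their directions differ from it in a comparison in which the gene is described.

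The RNA came from whole thoracic mammary glands of female mice of the FVB/N strain, homozygous for a transgene of SV40 large T antigen (Tag) under C3(1), a promoter fragment of the gene for rat prostatic steroid binding protein. All 4 groups carried this transgene, so that no group was free of it. Mice were weaned, balanced between groups by their behaviour in an open field, and housed either alone (isolated) or together (grouped). Glands were collected at 15 or 20 weeks of age, in estrus and at a fixed hour of the dark phase, with 4 arrays in each group of housing and age. The labels number the replicates without saying that each came from a separate animal, and the p-values here cover the variation among arrays, which may be technical.

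Chemokines are small secreted proteins that bind receptors coupled to G proteins and steer the movement of leukocytes along gradients. They are named by the spacing of their first cysteines: CC ligands act mostly on monocytes, eosinophils, dendritic cells and T cells, and many CXC ligands act on neutrophils or lymphocytes. CX3CL1 is made by epithelium and endothelium, and Cxcl12 by stromal fibroblasts. In the mammary gland and its tumors, macrophages are drawn in by ligands such as Ccl2 acting on Ccr2.

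Values are log2 levels as the authors normalized them, and a difference is isolated minus grouped, or 20 weeks minus 15 weeks, on that scale. A gene passed the test where its adjusted p was below 0.05 with the Benjamini-Hochberg correction over all 18193 genes. The median level of the arrays lay between 8.09 and 8.11 at 15 weeks and between 8.31 and 8.34 at 20 weeks. Age comparisons were therefore made relative to each array's median, and age cannot be told apart from whatever gave the arrays of each age a distribution of their own. Epithelial markers of the labelled tissue were present: the mean of 8 luminal genes lay between 10.91 and 11.42 on all arrays and that of 6 basal genes between 9.68 and 10.70. Skeletal muscle markers were high as well, with means between 12.83 and 14.14. Grouped replicate 1 at 15 weeks and isolated replicate 3 at 20 weeks stood apart in lymphocyte markers, as given with the lymphocyte genes. In bulk tissue, fewer cells of a type and less RNA per cell cannot be told apart.

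At 15 weeks, Cxcl12 was the gene of the 37 that passed the housing test, and it was lower in isolated mice. Cxcl12 encodes the stromal ligand of Cxcr4 and is known for holding leukocytes and tumor cells in tissue niches. Its main probe set, 1448823_at, read 11.35, 11.15, 11.03 and 11.01 in grouped mice and 10.52, 10.44, 10.45 and 10.58 in isolated mice. The groups did not overlap, and the difference was -0.64 (SE 0.083, adjusted p = 0.0348). Of all genes, 0.044% passed this test, 0.022% higher and 0.022% lower. The call was lost in 10 of 19 alternative settings, quantile normalization among them, while the difference stayed between -0.73 and -0.56 and adjusted p ranged from 0.020 to 0.735. Fibroblast markers, 8 of 8 with a negative difference, averaged 12.86 to 13.07 on the grouped and 12.63 to 12.94 on the isolated arrays, and their part in the Cxcl12 value was not tested.

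The other probe sets of Cxcl12 differed in direction at 15 weeks. Probe set 1417574_at read 10.05, 9.82, 10.33 and 9.96 in grouped mice and 10.09, 10.23, 10.42 and 10.29 in isolated mice, a difference of 0.22 with an adjusted p of 0.532. Probe set 1439084_at read 9.04, 8.99, 9.05 and 9.11 in grouped mice and 9.00, 9.16, 9.05 and 9.21 in isolated mice, a difference of 0.06. Both sets of values overlapped between the housing groups, so the lower level rested on 1 of the 3 probe sets. At 20 weeks the differences were -0.12 for 1448823_at, -0.73 for 1417574_at and -0.15 for 1439084_at, and none passed the test. The first of these was 0.34 without isolated replicate 1 and 0.13 without grouped replicate 3, so its sign rested on single arrays. Isolated replicate 1 at 20 weeks had the lowest level of 1448823_at, 9.37, and isolated replicate 4 the highest of 1417574_at in its group, 10.26.

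**Figure D1:**
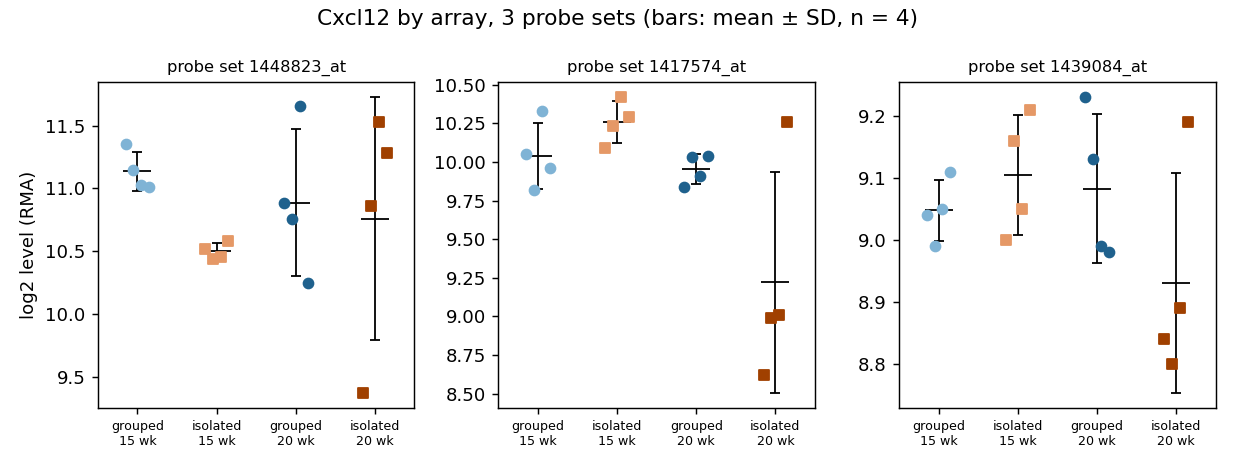
Log2 level of Cxcl12 on each array (y axis) by housing and age (x axis) for its 3 probe sets; points are arrays and bars the mean and SD of 4. In probe set 1448823_at the isolated arrays at 15 weeks lie between 10.44 and 10.58, below the grouped arrays at 11.01 to 11.35, while the other 2 probe sets overlap there.

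The remaining CC and CXC ligands at 15 weeks were mostly lower in isolated mice without passing the test. All 15 CC ligands had a negative difference, with a median of -0.09, as did 6 of the 10 CXC ligands. Some CC differences were near 0: Ccl4 and Ccl25 gave -0.011 each and Ccl20 -0.0003. Without grouped replicate 1, Ccl4 gave 0.020 and Ccl25 0.0035. Over the 26 ligands the median difference was -0.04, with 21 negative, and over the 11 receptors it was -0.17, with 9 negative. Without grouped replicate 1, the array of high lymphocyte markers, the receptor median was -0.044 and the ligand median -0.033; without grouped replicate 3 the ligand median was -0.12. Over all genes the median was -0.01, and 46% of genes had a positive difference. Of the 37 genes, 8 had an unadjusted p under 0.05, against 9.7% of all genes.

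Ccl11, the eosinophil attractant eotaxin, read 9.74, 9.72, 9.89 and 9.93 in grouped mice and 9.36, 9.48, 9.14 and 9.49 in isolated mice at 15 weeks. These groups did not overlap, and the difference was -0.45 (SE 0.089, adjusted p = 0.163). Cxcr6, the receptor of Cxcl16 on T cells and natural killer cells, read 7.66, 7.10, 7.23 and 7.48 in grouped mice and 6.93, 7.03, 6.91 and 6.85 in isolated mice. Here too the groups did not overlap, and the difference was -0.44 (SE 0.11, adjusted p = 0.284). Ccl11, Cxcl12 and Cxcr6 were the 3 of 37 genes that lay wholly lower in isolated mice, against 3.38% of all genes, and 0 lay wholly higher, against 2.31%.

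Ccl6, a CC ligand made by macrophages, read 11.54, 11.84, 11.42 and 11.98 in grouped mice and 11.02, 11.47, 10.75 and 11.55 in isolated mice at 15 weeks. The ranges overlapped, and the difference was -0.50 (SE 0.18, adjusted p = 0.448). The 15 macrophage markers measured were all negative too, and their average ran from 10.63 to 10.90 on grouped arrays and from 10.18 to 10.60 on isolated arrays. Of 7 mast cell markers 5 were negative and 3 passed, with averages of 9.89 to 10.02 on grouped and 9.55 to 9.68 on isolated arrays. The part of these cells in the chemokine values was not tested. The 3' minus 5' Gapdh signal, a sign of RNA quality, was -0.06 ± 0.02 (SD, n = 4) in grouped and -0.01 ± 0.02 (SD, n = 4) in isolated arrays. With that measure in the fit, 23 of the 37 differences were negative, the ligand median was -0.01 and the receptor median -0.17. Ccl6 then differed by 0.022, and Cxcl12 by -0.73 without passing (adjusted p = 0.735).

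Among the positive differences at 15 weeks, those of Cxcl1, Cxcl5, Cxcl15 and Ccr3 had the smallest p values, and none passed. Cxcl1, a ligand of Cxcr2 on neutrophils, read 9.88, 9.91, 9.78 and 9.91 in grouped mice and 10.23, 10.03, 10.09 and 9.91 in isolated mice, a difference of 0.19 (SE 0.074, adjusted p = 0.456). Cxcl5, another Cxcr2 ligand, read 4.94, 4.94, 4.81 and 5.33 in grouped mice and 5.16, 5.32, 5.05 and 5.21 in isolated mice, a difference of 0.18, while Cxcl2, a ligand of the same receptor, differed by -0.043. Cxcl15, known from lung epithelium, read 8.35, 8.26, 9.41 and 8.56 in grouped mice and 8.91, 9.22, 9.08 and 9.04 in isolated mice, a difference of 0.42. Grouped replicate 3 was above all isolated arrays for Cxcl15, and without it the difference was 0.67 and passed the test (adjusted p = 0.0323). The eosinophil receptor Ccr3 read 6.77, 6.72, 6.91 and 6.73 in grouped mice and 6.85, 7.0, 6.89 and 6.87 in isolated mice, a difference of 0.12, at levels near the lower quartile of these arrays (6.76 to 6.79).

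At 20 weeks none of the 37 genes passed the housing test, where 0.011% of all genes did (0% higher, 0.011% lower). An unadjusted p under 0.05 was found for 8, against 8.49% of all genes. The values lay mostly higher in isolated mice: 17 of 26 ligands and 8 of 11 receptors had a positive difference, against 46.7% of all genes. The median difference was 0.13 for the ligands, 0.05 for the receptors and -0.01 for all genes. Without isolated replicate 3 the receptor median was 0.0085, and without grouped replicate 4 it was 0.015. The arrays of the 20 week housing comparison and of the 15 week one are separate. From 15 to 20 weeks, 20 genes went from a negative to a positive difference, 13 of them ligands and 7 receptors. Another 10 were negative at both ages, 5 positive at both, and 2 went from positive to negative. As 30 of the 37 genes were negative at 15 weeks and 25 positive at 20 weeks, many changes of sign follow from those counts alone. The share of all genes with each pattern was not counted.

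**Figure D2:**
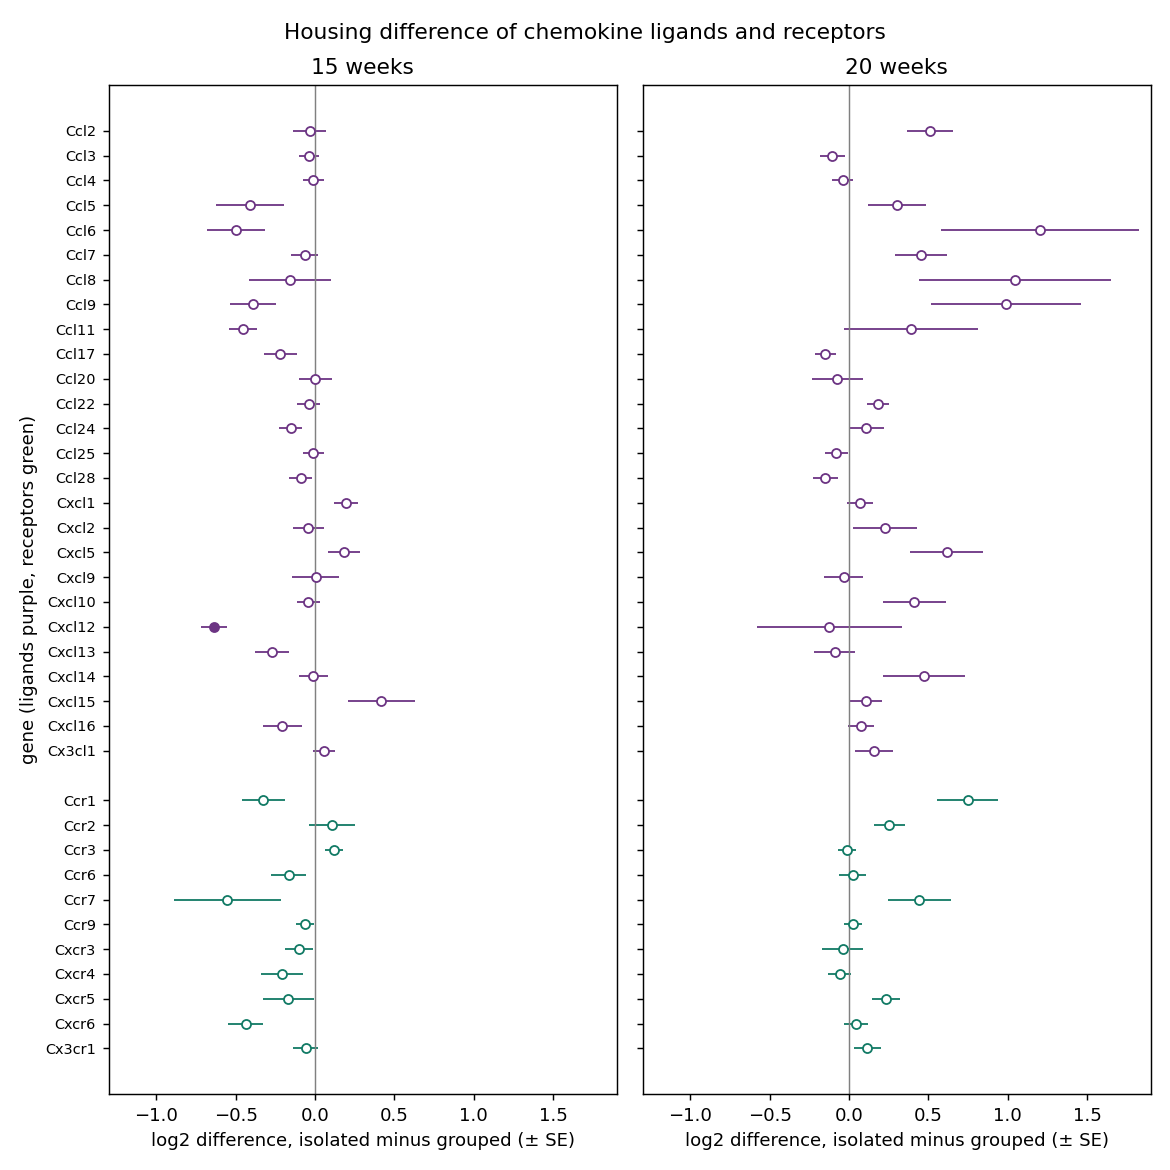
Difference isolated minus grouped on the log2 scale (x axis) with its SE for the 26 ligands (purple) and 11 receptors (green), at 15 weeks (left) and 20 weeks (right); a filled point passed the test. Cxcl12 at -0.64 is the filled point, and at 20 weeks 25 of the 37 points lie above 0.

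The largest differences at 20 weeks belonged to the macrophage ligands Ccl6, Ccl8 and Ccl9, the receptor Ccr1, Cxcl5 (0.62) and Ccl2. Ccr1, a receptor of Ccl3, Ccl5, Ccl7 and Ccl9 on monocytes and neutrophils, read 8.63, 8.23, 8.73 and 7.87 in grouped mice and 8.83, 9.25, 9.37 and 9.00 in isolated mice. The groups did not overlap, and the difference was 0.75 (SE 0.19, adjusted p = 0.455). Ccr1, Ccl22 and Cxcr5 were the 3 of 37 genes wholly higher in isolated mice, against 2.21% of all genes, and 0 lay wholly lower, against 2% of all genes. Ccl22, a dendritic cell and macrophage ligand of Ccr4, read 7.70, 7.63, 7.73 and 7.47 in grouped mice and 7.78, 7.86, 7.88 and 7.75 in isolated mice, a difference of 0.18 (adjusted p = 0.571).

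Ccl2, the main attractant of monocytes, read 9.57, 9.13, 9.25 and 9.08 in grouped mice and 9.48, 10.06, 9.90 and 9.64 in isolated mice at 20 weeks. Grouped replicate 1 lay above isolated replicate 1, and the difference was 0.51 (SE 0.15, adjusted p = 0.488). Ccl7, a further monocyte attractant, read 8.22, 8.15, 8.41 and 7.89 in grouped mice and 8.24, 8.92, 8.87 and 8.46 in isolated mice, a difference of 0.45 (SE 0.16, adjusted p = 0.567). For their receptor Ccr2 the 4 probe sets gave 0.25, 0.43, 0.58 and 0.29 at 20 weeks, none of which passed, and 0.11, -0.16, -0.48 and -0.19 at 15 weeks.

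Ccl6, Ccl8 and Ccl9 are ligands expressed mainly by macrophages, and their differences of 1.20, 1.05 and 0.99 at 20 weeks had the widest spread between arrays. Ccl6 read 11.27, 10.99, 12.76 and 9.91 in grouped mice and 11.06, 12.83, 13.37 and 12.49 in isolated mice (SE of the difference 0.62, adjusted p = 0.617). Ccl8 read 11.71, 10.99, 13.62 and 10.92 in grouped mice and 11.90, 13.37, 13.63 and 12.53 in isolated mice (adjusted p = 0.643). Ccl9 read 10.98, 10.55, 12.17 and 10.28 in grouped mice and 10.92, 12.29, 12.85 and 11.87 in isolated mice (adjusted p = 0.597). Grouped replicate 3 stood with the high isolated arrays and isolated replicate 1 with the low grouped ones in all 3 genes. Without grouped replicate 3 the differences were 1.71, 1.65 and 1.38, with adjusted p from 0.299 to 0.413; without isolated replicate 1 they were 1.66, 1.37 and 1.34, and without isolated replicate 3 they were 0.89, 0.79 and 0.70.

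The marker averages of macrophages, fibroblasts and mast cells all moved with these ligands at 20 weeks. Each was highest in replicate 3 among grouped arrays and lowest in replicate 1 among isolated arrays. The mean of the 15 macrophage markers measured read 10.49, 10.05, 11.25 and 10.08 in grouped mice and 10.55, 11.27, 11.30 and 11.09 in isolated mice. All 15 markers had a positive difference at 20 weeks, with a median of 0.57, and 0 passed. Fibroblast markers were positive in 8 of 8 and mast cell markers in 6 of 7. The fibroblast mean read 12.51, 12.43, 13.21 and 12.03 in grouped mice and 12.34, 13.03, 13.10 and 13.14 in isolated mice. The mast cell mean read 9.31, 8.96, 10.21 and 8.95 in grouped mice and 9.27, 9.98, 9.92 and 9.57 in isolated mice. Adipocyte markers were negative in 6 of 6, skeletal muscle markers in 6 of 6, endothelial markers in 7 of 7 and luminal markers in 8 of 8. The part of these cell types in the ligand values was not tested.

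**Figure D3:**
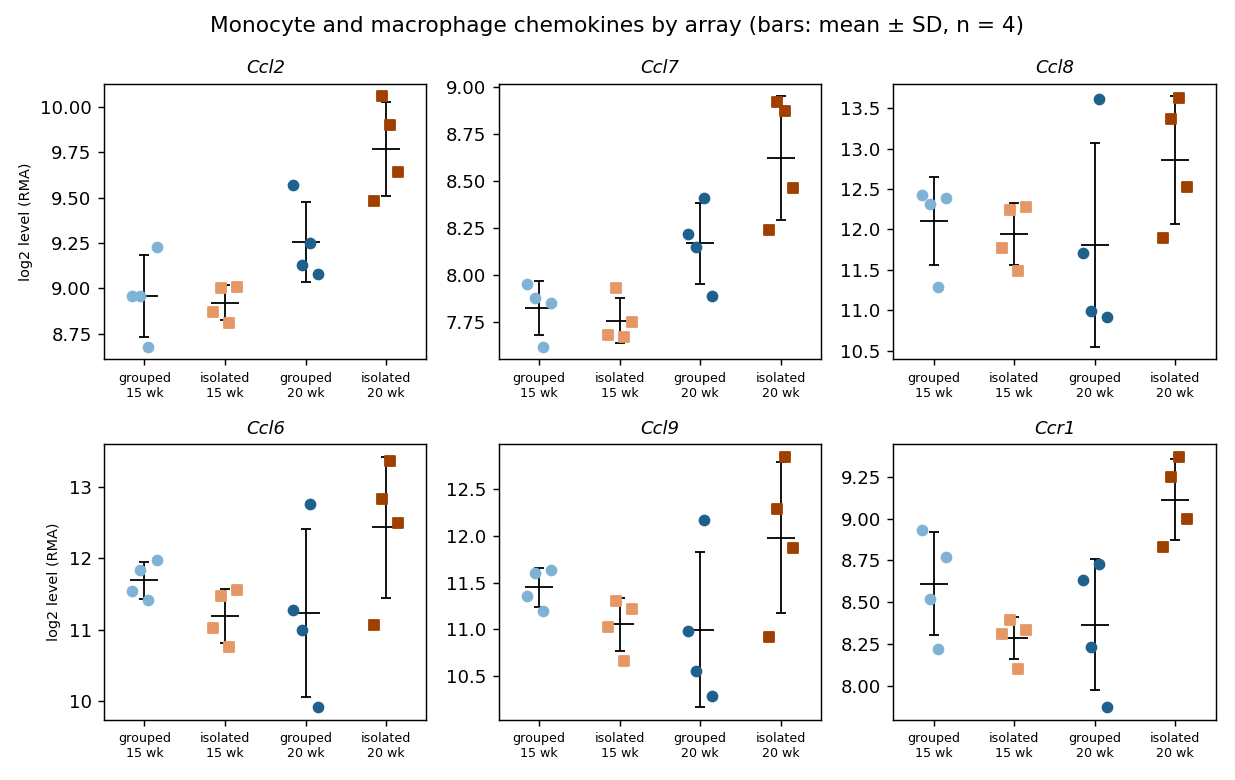
Log2 level on each array (y axis) of the monocyte and macrophage ligands Ccl2, Ccl7, Ccl8, Ccl6, Ccl9 and of the receptor Ccr1, by housing and age; bars are the mean and SD of 4 arrays. At 20 weeks 1 grouped array reads 13.62 for Ccl8, beside the isolated arrays at 13.37 and 13.63, and the isolated range of Ccr1 (8.83 to 9.37) lies above the grouped range (7.87 to 8.73).

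Among the negative differences at 20 weeks, those of Ccl17, Ccl28, Ccl3 and Ccl25 had the smallest p values. Ccl17, an attractant of T helper cells, read 8.19, 7.93, 8.09 and 8.16 in grouped mice and 7.92, 7.98, 7.99 and 7.89 in isolated mice, a difference of -0.15 (adjusted p = 0.584). Ccl28, a mucosal epithelial ligand, read 8.22, 8.13, 8.08 and 7.97 in grouped mice and 7.92, 7.79, 8.12 and 7.98 in isolated mice, a difference of -0.15. Its other probe sets gave -0.022 (1450217_at: 7.96, 7.94, 8.01 and 7.86 against 7.90, 7.84, 7.98 and 7.96) and 0.024 (1450218_at: 5.41, 5.36, 5.36 and 5.60 against 5.57, 5.47, 5.52 and 5.27). Ccl3, a macrophage inflammatory ligand, read 8.13, 8.07, 7.82 and 7.83 in grouped mice and 7.88, 7.79, 7.86 and 7.92 in isolated mice, a difference of -0.10. Ccl25, known from thymus and gut, read 8.23, 8.16, 8.24 and 8.28 in grouped mice and 8.14, 8.14, 8.33 and 7.99 in isolated mice, a difference of -0.08. Its second probe set, 1418777_at, read 7.17, 7.32, 7.03 and 7.22 against 7.54, 7.31, 7.32 and 7.07, a difference of 0.12. None of these passed the test.

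Probe sets disagreed in direction for other genes as well, without any passing. At 15 weeks Ccl25 gave 0.01 and -0.01. The gut-homing receptor Ccr9 had values from -0.16 to 0.03 over its 5 probe sets at 15 weeks, and Cx3cl1 had values from -0.03 to 0.07 over its 4. At 20 weeks Ccr9 ranged from -0.10 to 0.19, Cx3cl1 from -0.05 to 0.16, Cxcl1 from -0.07 to 0.13, and Cxcr6 from -0.04 to 0.05. Cxcl13 kept a negative sign in both probe sets at 15 weeks, -0.27 and -1.01, the second of which came with an adjusted p of 0.339.

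Ccr7, Ccl5 and Cxcr5 were highest on the 2 arrays with high lymphocyte markers. The mean of 9 T cell markers was 8.86 in grouped replicate 1 at 15 weeks, against 7.98 to 8.05 in the other grouped arrays, and 8.69 in isolated replicate 3 at 20 weeks, against 8.03 to 8.10. Ccr7, the receptor that brings T cells and dendritic cells into lymph nodes, read 9.28 on the first of these arrays and 8.35 on the second, above all other arrays of their groups. Ccl5, a T cell product, read 10.79 and 10.61 there and Cxcr5, the follicular B cell receptor, 6.38 and 6.45. Ccr7 differed by -0.55 between housing groups at 15 weeks and by -0.14 without grouped replicate 1, and by 0.44 at 20 weeks and 0.23 without isolated replicate 3. Cxcr5 read 6.05, 5.84, 6.01 and 6.05 in grouped mice and 6.07, 6.20, 6.45 and 6.15 in isolated mice at 20 weeks, a difference of 0.23 (adjusted p = 0.570) and of 0.16 without isolated replicate 3. Cxcr5 and Ccr9 lay below the lower quartile of every array.

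**Figure D4:**
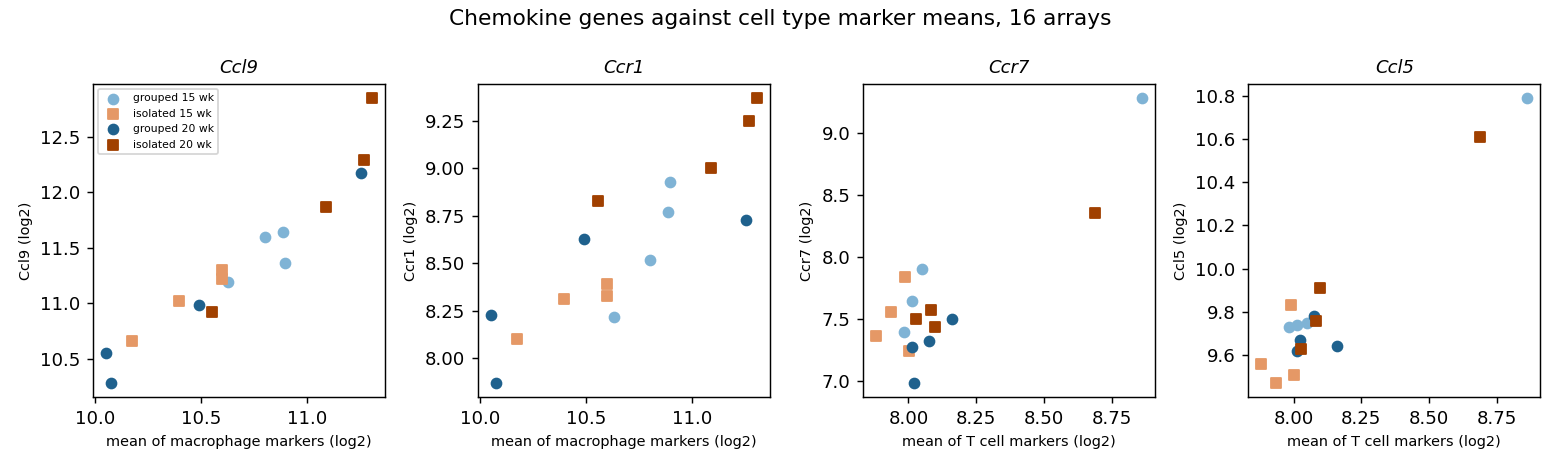
Log2 level of Ccl9 and Ccr1 against the mean of macrophage markers, and of Ccr7 and Ccl5 against the mean of T cell markers, on the 16 arrays (both axes log2); symbols give housing and age. Ccr7 and Ccl5 are highest on the 2 arrays with T cell marker means of 8.86 and 8.69, and the axes share the same RNA.

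The housing difference was then compared between ages in a fit of all 16 arrays; these values share arrays with every comparison above. None of the 37 genes passed this interaction test, where 0.011% of all genes did (0% positive and 0.011% negative), and 9 had an unadjusted p under 0.05, against 12.7%. For Ccr1 the interaction was 1.08 (SE 0.26, adjusted p = 0.178): its difference was -0.33 at 15 weeks and 0.75 at 20 weeks. At 15 weeks Ccr1 read 8.93, 8.52, 8.22 and 8.77 in grouped mice and 8.31, 8.39, 8.10 and 8.33 in isolated mice, so the isolated arrays lay within or below the grouped ones. Without grouped replicate 3 at 20 weeks the Ccr1 interaction was 1.21 and passed (adjusted p = 0.0487). For Cxcr6 the interaction was 0.48 (adjusted p = 0.213), with 20 week values of 7.44, 7.37, 7.27 and 7.23 in grouped and 7.26, 7.29, 7.52 and 7.42 in isolated mice. For Ccl2 it was 0.54 (adjusted p = 0.268), with 15 week values of 8.96, 8.96, 8.68 and 9.23 in grouped and 8.87, 9.00, 8.81 and 9.01 in isolated mice. In a fit without the 2 arrays of high lymphocyte markers, chosen after seeing the data, the interactions were 0.88 for Ccr1, 0.34 for Cxcr6 and 0.50 for Ccl2, and none passed.

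More of the genes passed with age than with housing. Between 15 and 20 weeks, 12 of the 37 genes passed in grouped mice (4 higher, 8 lower), against 37.3% of all genes (17.8% higher, 19.4% lower), and 20 passed in isolated mice (13 higher, 7 lower), against 50.2% (26.5% higher, 23.8% lower). Both shares lay near those of all genes. Relative to the array median, the genes higher at 20 weeks in both housings were Cxcl1, Cxcl5, Cx3cl1 and Ccl25. Those lower in both were Ccl17, Ccl24, Cxcl9, Cxcl15, Ccr9 and Cxcr3. As deposited, Ccl24 averaged 9.11 at 15 and 9.02 at 20 weeks in isolated mice, with overlapping ranges. The 2 age comparisons share no arrays, but in both the ages differ in array distribution as well. The ages did not overlap for 4 genes higher and 9 lower in grouped mice, against 16.5% and 19.2% of all genes, and for 11 higher and 7 lower in isolated mice, against 25.2% and 22.1%.

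These age calls are those of each gene's main probe set, and of the 17 genes with several probe sets 7 in grouped and 9 in isolated mice had probe sets of both signs. The p-values of the other probe sets are adjusted over all probe sets with 1 symbol. Ccr9 probe set 1427419_x_at rose by 0.40 in isolated mice (adjusted p = 0.00244), while the main probe set fell by 0.15. As deposited, that main probe set averaged 6.56 at 15 and 6.55 at 20 weeks in grouped mice. In isolated mice it averaged 6.50 and 6.57, so Ccr9 was lower only relative to the array median. Cxcl12 did not pass with age in its main probe set, while 1417574_at fell by 1.26 (adjusted p = 0.00520) and 1439084_at fell by 0.40 (adjusted p = 0.00495) in isolated mice. Ccr2 probe sets 1421186_at and 1421187_at fell by 0.46 and 1.16 in grouped mice (adjusted p = 0.0277 and 0.00726), where the main probe set gave 0.049. Ccr1 probe set 1419610_at rose by 0.23 in grouped mice (adjusted p = 0.0277), where the main probe set gave -0.48 without passing. Cxcl14 did not pass in its main probe set. As deposited, its probe set 1418457_at ranged from 8.93 to 9.11 at 15 weeks and from 9.93 to 10.78 at 20 weeks in isolated mice. In grouped mice that probe set averaged 9.07 and 9.63 as deposited, and the main one 9.94 and 10.13. Relative to the array median, the main one gave -0.046 in grouped mice.

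Cell type markers passed with age too, beside 17.8% of all genes higher and 19.4% lower in grouped mice, and 26.5% and 23.8% in isolated mice. In isolated mice 14 of 15 macrophage markers were positive and 6 rose, while in grouped mice 14 of 15 were negative and 4 fell. All 6 adipocyte markers fell in both housings, and all 6 skeletal muscle markers fell in isolated mice. Of 7 neutrophil markers, 4 rose and 1 fell in isolated mice and 1 rose and 1 fell in grouped mice. The part of these cells in the age changes of the chemokine genes was not tested.

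Cxcl5, the neutrophil attractant, had the largest rise. It read 4.94, 4.94, 4.81 and 5.33 in grouped and 5.16, 5.32, 5.05 and 5.21 in isolated mice at 15 weeks, and 7.48, 7.33, 6.49 and 6.77 in grouped and 7.26, 7.78, 7.49 and 7.99 in isolated mice at 20 weeks. After the shift of all probe sets was removed (0.23 in grouped and 0.22 in isolated mice), the rise was 1.78 (SE 0.20, adjusted p = 0.000376) in grouped and 2.22 (SE 0.14, adjusted p = 1.22e-05) in isolated mice, with no overlap between ages. All 15 week levels lay under the lower quartile of those arrays (6.76 to 6.79), among the dimmer probe sets. At 20 weeks grouped replicates 3 and 4 (6.49 and 6.77) also lay under the lower quartile of their arrays (6.98 to 7.04 at that age).

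Cx3cl1, the membrane-bound ligand made by epithelium, read 9.62, 9.41, 9.46 and 9.54 in grouped and 9.67, 9.45, 9.61 and 9.52 in isolated mice at 15 weeks. At 20 weeks it read 10.36, 10.27, 10.11 and 10.31 in grouped and 10.73, 10.46, 10.14 and 10.36 in isolated mice. It rose by 0.52 (SE 0.074, adjusted p = 0.000972) and 0.64 (SE 0.12, adjusted p = 0.00200). Cxcl1 read 10.53, 10.49, 10.34 and 10.53 in grouped and 10.71, 10.49, 10.60 and 10.37 in isolated mice at 20 weeks, a rise of 0.37 (adjusted p = 0.00250) and 0.26 (adjusted p = 0.0425) over the 15 week values given above. Its probe set 1457644_s_at can match several transcripts. As deposited, Cxcl1 values still hold the shift of all probe sets, 0.23 in grouped and 0.22 in isolated mice. There the main probe set averaged 9.87 at 15 and 10.47 at 20 weeks in grouped mice, and 10.06 and 10.54 in isolated mice. Probe set 1419209_at averaged 7.55 and 8.66 in grouped mice, and 7.66 and 8.79 in isolated mice, a larger change. Probe set 1441855_x_at averaged 10.03 and 10.39 in grouped mice, and 10.07 and 10.32 in isolated mice. This was a smaller change, and in isolated mice it was near the shift itself. In its main probe set Ccl25 rose by 0.30 and 0.24. The 15 week values of Ccl25 were 7.74, 7.73, 7.57 and 7.75 in grouped and 7.69, 7.56, 7.68 and 7.80 in isolated mice. Relative to the array median, its second probe set, 1418777_at, fell by 0.27 in grouped mice (adjusted p = 0.0258). It gave -0.15 in isolated mice (adjusted p = 0.179), so the direction of Ccl25 differed between probe sets on that scale. As deposited, 1418777_at averaged 7.22 and 7.19 in grouped and 7.24 and 7.31 in isolated mice. Cx3cl1 probe sets 1421610_at and 1441884_x_at gave 0.016 and -0.054 in isolated mice.

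The main probe sets of Cxcl9 and of its receptor Cxcr3, which guide activated T cells, fell relative to the array median. Cxcl9, an interferon-induced ligand of Cxcr3, read 9.29, 9.05, 9.59 and 8.78 in grouped and 9.27, 9.20, 9.28 and 8.98 in isolated mice at 15 weeks, and 8.70, 8.36, 8.20 and 8.78 in grouped and 8.58, 8.45, 8.41 and 8.47 in isolated mice at 20 weeks. It fell by 0.90 in grouped (adjusted p = 0.00494) and by 0.93 in isolated mice (adjusted p = 4.90e-05). Its second probe set, 1456907_at, went the other way: it rose by 0.25 in grouped mice (adjusted p = 0.0305) and gave 0.19 in isolated mice (adjusted p = 0.0677). Its receptor Cxcr3 read 8.56, 8.44, 8.38 and 8.34 in grouped and 8.32, 8.18, 8.24 and 8.56 in isolated mice at 15 weeks, and 8.15, 8.17, 8.41 and 7.98 in grouped and 7.94, 8.08, 8.48 and 8.04 in isolated mice at 20 weeks. Cxcr3 fell by 0.48 in grouped (adjusted p = 0.00363) and by 0.41 in isolated mice (adjusted p = 0.0150). On values as deposited the isolated difference of Cxcr3 was -0.19 and did not pass (adjusted p = 0.196).

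Ccl17 read 8.38, 8.57, 8.12 and 8.64 in grouped and 8.28, 8.11, 8.24 and 8.21 in isolated mice at 15 weeks, and it fell by 0.57 in grouped (adjusted p = 0.00423) and by 0.49 in isolated mice (adjusted p = 0.000126). Cxcl15 read 8.10, 7.88, 7.99 and 8.17 in grouped and 8.12, 8.41, 8.03 and 8.0 in isolated mice at 20 weeks, and it fell by 0.84 (adjusted p = 0.0149) and 1.14 (adjusted p = 5.16e-05) in this probe set. Its second probe set, 1456428_at, gave 0.088 in grouped and 0.0058 in isolated mice, and neither passed.

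Ccl11 and Ccr7 passed in grouped mice. Ccl11 read 8.69, 8.64, 9.74 and 8.05 in grouped and 8.11, 9.51, 9.86 and 9.21 in isolated mice at 20 weeks; in grouped mice it fell by 1.27 (SE 0.28, adjusted p = 0.00765). Ccr7 read 9.28, 7.64, 7.39 and 7.90 in grouped mice at 15 weeks and 7.32, 6.98, 7.50 and 7.27 at 20 weeks; it fell by 1.02 (SE 0.34, adjusted p = 0.0416) and by 0.61 without the high grouped replicate 1. The call for Ccr7 was lost in 6 of 16 alternatives. In isolated mice Ccr7 read 7.84, 7.55, 7.36 and 7.24 at 15 weeks and 7.50, 7.57, 8.35 and 7.43 at 20 weeks.

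Genes that passed in isolated mice included the monocyte ligands. Ccl2 rose by 0.62 (adjusted p = 0.00183) and Ccl7 by 0.64 (adjusted p = 0.00475), with 15 week values of Ccl7 of 7.95, 7.88, 7.62 and 7.85 in grouped and 7.68, 7.93, 7.67 and 7.75 in isolated mice. Cxcl2, another Cxcr2 ligand, read 6.25, 6.10, 5.98 and 6.51 in grouped and 6.21, 6.15, 6.11 and 6.20 in isolated mice at 15 weeks, and 7.11, 7.21, 6.18 and 6.79 in grouped and 7.04, 6.88, 7.21 and 7.08 in isolated mice at 20 weeks. It rose by 0.66 in isolated mice (adjusted p = 8.43e-05). All 15 week levels of Cxcl2 lay under the lower quartile of those arrays (6.76 to 6.79), and some 20 week levels lay under that of theirs (6.98 to 7.04). Cxcl10, Cxcl16, Ccr1, Ccr6, Cxcr5 and Cxcr6 also rose in isolated mice. Ccl28 fell there by 0.23 relative to the array median (adjusted p = 0.0326), while as deposited it averaged 7.95 at both ages. The difference between the age changes of the 2 housings is the interaction given above, which none passed, so no gene is shown to change in 1 housing and not in the other.

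**Figure D5:**
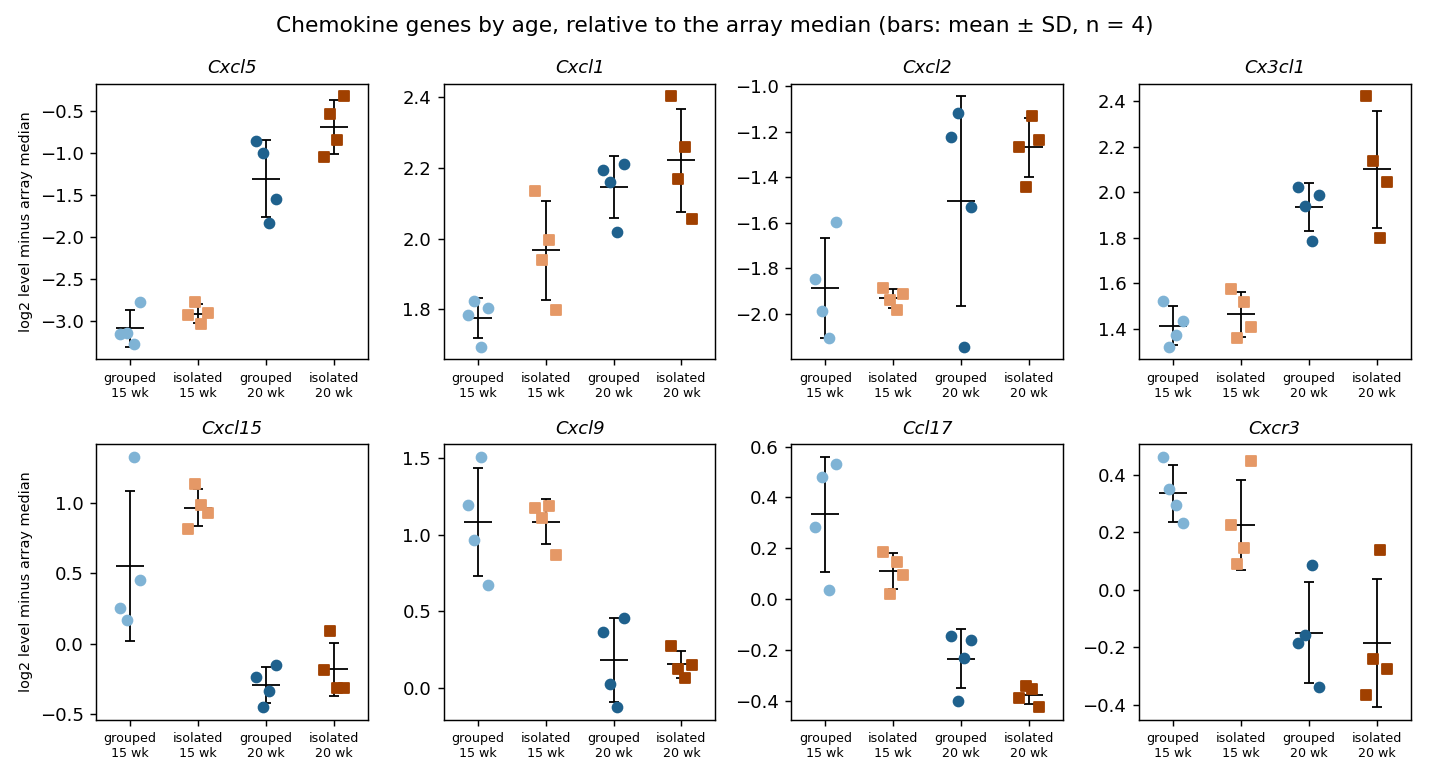
Log2 level minus the array median (y axis) of 8 chemokine genes by housing and age (x axis), with the mean and SD of 4 arrays. Cxcl5 rose by 1.78 in grouped and 2.22 in isolated mice, while Cxcl9 fell by 0.90 and 0.93 in the main probe set plotted.

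The promoters of the CXC ligands Cxcl1, Cxcl2 and Cxcl15, which lie on chromosome 5, are shown as examples. In isolated mice each changed with age in its main probe set, the first 2 upward and the last downward. Cxcl5, Cxcl9, Cxcl10 and Cxcl16 passed there too, and their promoters are not shown. Sequences are the 250 bases before the annotated start, from RefSeq on GRCm38.p6, on the strand of the gene, with matches to the NF-kB letters (GGG, any 2 bases, TTTCC) or the TATA box letters TATAAA on either strand in capitals. Cxcl1 lies at chr5:90890995-90891244 on the plus strand, Cxcl2 at chr5:90903649-90903898 on the plus strand and Cxcl15 at chr5:90794284-90794533 on the plus strand.
Cxcl1: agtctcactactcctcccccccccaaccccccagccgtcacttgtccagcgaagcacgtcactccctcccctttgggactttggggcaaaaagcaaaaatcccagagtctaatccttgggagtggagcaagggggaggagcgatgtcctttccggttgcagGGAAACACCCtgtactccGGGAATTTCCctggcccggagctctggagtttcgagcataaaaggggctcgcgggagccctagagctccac
Cxcl2: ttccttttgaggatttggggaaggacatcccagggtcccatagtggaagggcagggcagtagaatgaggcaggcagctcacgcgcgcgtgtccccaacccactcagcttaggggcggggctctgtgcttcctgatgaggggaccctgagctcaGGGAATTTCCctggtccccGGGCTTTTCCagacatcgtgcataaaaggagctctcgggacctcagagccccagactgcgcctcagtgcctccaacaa
Cxcl15: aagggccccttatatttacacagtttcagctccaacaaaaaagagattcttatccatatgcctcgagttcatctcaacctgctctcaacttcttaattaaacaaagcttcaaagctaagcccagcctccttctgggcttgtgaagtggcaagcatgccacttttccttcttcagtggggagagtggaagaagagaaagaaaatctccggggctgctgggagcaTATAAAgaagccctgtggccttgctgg
The Cxcl1 and Cxcl2 windows hold 2 NF-kB matches each, and the Cxcl15 window holds a TATA box 27 to 22 bases before the start. An NF-kB match was found in 1.41% of 32851 windows of all genes and in 5 of the 29 windows of 27 chemokine and receptor genes. The windows of Cxcl9, which fell, and Cxcl10, which rose, held none. Whether such matches go with the direction of change was not tested.

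The macrophage ligands Ccl8 and Ccl9 were high and low on the same arrays at 20 weeks, and their windows are shown for that reason. Ccl8 lies at chr11:82114935-82115184 on the plus strand and Ccl9 at chr11:83578637-83578886 on the minus strand.
Ccl8: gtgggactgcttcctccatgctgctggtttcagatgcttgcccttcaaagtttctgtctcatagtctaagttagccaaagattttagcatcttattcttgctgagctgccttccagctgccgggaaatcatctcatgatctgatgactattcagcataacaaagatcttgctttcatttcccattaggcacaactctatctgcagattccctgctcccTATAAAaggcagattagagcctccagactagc
Ccl9: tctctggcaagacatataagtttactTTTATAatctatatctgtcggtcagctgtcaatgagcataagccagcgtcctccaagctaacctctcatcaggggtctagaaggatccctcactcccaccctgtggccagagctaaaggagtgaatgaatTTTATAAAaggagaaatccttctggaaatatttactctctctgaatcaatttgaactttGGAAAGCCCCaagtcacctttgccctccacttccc
Ccl8 has a TATA box 32 to 27 bases before the start. Ccl9 has TATA matches further upstream, 2 of which overlap, and an NF-kB match 35 to 26 bases before the start. TATAAA was found in 12.4% of all windows and in 8 of the 29. A match describes these letters and is no evidence of a bound site.

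The rest of the pathway was read from fixed lists, and 0 of its genes passed either housing test. Among 9 other ligands measured, 5 were negative at 15 weeks and 7 positive at 20 weeks. The platelet ligands Ppbp and Pf4 differed by -0.40 and -0.36 at 15 weeks (adjusted p = 0.314 and 0.342), and Ccl1 by 0.17. At 20 weeks Ccl12, a mouse ligand of Ccr2, differed by 0.84 (adjusted p = 0.429), Pf4 by 0.84 and Cxcl3 by 0.40. Among 11 other and atypical receptors, Ackr3, the scavenging receptor of Cxcl12, gave -0.23 at 15 weeks and 0.39 at 20 weeks, Ackr1 -0.19 and Cxcr2 0.17 at 15 weeks, and Ccr4 -0.15 and Ackr4 -0.16 at 20 weeks.

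Below the receptors, 21 of 25 signalling genes were negative at 15 weeks and 16 positive at 20 weeks. Rgs18 gave -0.30, Rgs1 -0.33 and Grk3 0.21 at 15 weeks, and at 20 weeks Arrb2 gave 0.23, Rac2 0.55 and Plcb2 -0.18. Rgs1 and Rgs18 shorten G protein signals, Grk3 and Arrb2 silence activated receptors, and Rac2 drives leukocyte movement. Of 16 inducers of chemokine genes, 8 were negative at each age: Tnf gave 0.09, Il1b -0.14 and Irf1 -0.09 at 15 weeks, and Ifng gave -0.09, Il1b 0.22 and Il4 0.11 at 20 weeks.

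With age, 2 of the 9 other ligands rose and 1 fell in grouped mice, against 17.8% and 19.4% of all genes, and 3 rose and 0 fell in isolated mice, against 26.5% and 23.8%. Of the 11 other receptors, 1 rose and 3 fell in grouped mice and 2 rose and 3 fell in isolated mice. Of the 25 signalling genes, 3 rose and 6 fell in grouped mice and 9 rose and 2 fell in isolated mice. Of the 16 inducers, 4 rose and 1 fell in grouped mice and 6 rose and 2 fell in isolated mice.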

How the data were processed

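Expression was measured in 16 mammary gland samples on Affymetrix mouse arrays, 4 for each combination of housing and age. The authors deposited log2 levels for 45101 probe sets, made with RMA in affy per the submitters' processing notes, whose versions are not given in the sources used here. Arrays of each age had a distribution of their own, which the sources used here do not explain. Of the probe sets, 34945 had 1 gene symbol, 932 several, 9160 were unlisted and 64 were controls; a gene was represented by its probe set of highest mean. Housing differences were fitted on the 8 arrays of an age, and age differences on values centred on each array's median, with limma 3.58.1 in R 4.3.3 (intensity trend, Benjamini-Hochberg). With 4 arrays a group, precision is limited. The fits were tested on simulated data: over 18193 genes, of 67 planted log2 shifts of 0.5, 53 were found for housing at 15 weeks (12 false calls over all shifts), 42 at 20 weeks (13 false) and 37 for the interaction (4 false). The simulated noise was independent between genes, without the departures that many genes of an array shared in the data. These counts therefore need not hold for the arrays themselves. The members, lists and rules for named genes were chosen with earlier results of these data known. Named were the genes past a threshold in a housing or interaction test, the 4 smallest p in each direction per housing comparison, the 3 smallest of the interaction, the 4 largest changes in each direction with age, and 3 genes of each pathway list. Alternatives were other scalings, filters, probe sets, fits, covariates and left-out arrays.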

Additional observations from a re-analysis of the deposited data

Results flagged for a closer look

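Among 84 group values of 21 named genes, 2 held an array far from the other 3, where chance flags about 1 in 20 groups. Ccl25 in grouped mice at 15 weeks read 7.57 in replicate 3, below 7.73 to 7.75 in the others. Ccr7 in isolated mice at 20 weeks read 8.35 in replicate 3, above 7.43 to 7.57 in the others, on the array that also had a high T cell marker mean of 8.69.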

How the results depend on the processing

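Of 632 values of 35 named differences under alternatives, 611 kept their direction and side of the threshold, 17 no longer passed, 2 newly passed and 2 reversed. The reversed ones were Ccl6 at 15 weeks with the Gapdh covariate, 0.022, and Ccl28 at 20 weeks when read from its most variable probe set, 0.024; the cause was not tested. The single gene called at 15 weeks became 0 with quantile normalization, cyclic loess, the most variable probe set, all 16 arrays and the Gapdh covariate, and ranged from 0 to 2 with an array left out. Medians that moved by more than the spread between replicates were, with genes below the median level removed, those of the ligands at 15 weeks (-0.16) and 20 weeks (0.23) and of the receptors at 15 weeks (0.11, from 1 receptor left), and, over every probe set, that of the ligands at 20 weeks (0.078). With an array left out, the ligand median ran from -0.12 to -0.029 at 15 weeks and from 0.12 to 0.18 at 20 weeks, and the receptor median from -0.20 to -0.044 and from 0.0085 to 0.086; the receptor median at 20 weeks was 0.25 with the filter, again from 1 receptor. The age count in grouped mice was 4 with that filter, 19 on values as deposited and 11 to 20 with an array left out, the highest without grouped replicate 3 at 20 weeks; in isolated mice it was 5 with the filter and 15 to 23. The interaction count was 0 to 1. Over all settings the genes called ranged from 0 to 31 at 15 weeks, 0 to 136 at 20 weeks and 0 to 139 for the interaction. Replicate numbers were not treated as pairs. Same-number correlations were -0.10 to 0.36 and -0.16 to 0.49 for housing at 15 and 20 weeks. For age in grouped and isolated mice they were -0.18 to 0.23 and -0.20 to 0.38. In these comparisons 2, 2, 1 and 3 of 4 arrays correlated best with their own number, which does not settle whether the numbers pair samples. The replicate block gave 1 gene of the 37 at 15 weeks, 0 at 20 weeks, 14 and 21 for age and 0 for the interaction. It gave 17 genes in all at 15 weeks against 8.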
